A study of Mus musculus with 7 samples.

Results

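The proteasome genes were compared between mouse embryonic fibroblasts (MEF) and mouse embryonic stem cells (mESC). The members are the genes whose symbol reads Psma to Psmg followed by a number, without the interferon-induced Psmb8, Psmb9 and Psmb10. The count table listed 45 such genes among 55484 genes. By role they are 8 genes of the alpha ring, 8 of the beta ring, 8 of the cap base, 9 of the cap lid and its ubiquitin receptor, 3 cap chaperones, 4 core chaperones and 5 activators and inhibitor. Sem1 and Adrm1, whose proteins also sit in the cap, and Pomp, a maturation factor, do not carry such symbols and are given below with the partner genes.

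Gene counts of 4 MEF and 3 mESC libraries were available, and both cell types had a C57/Bl6 background with no treatment named. MEFs are cultured fibroblasts of the mouse embryo, while mESCs are pluripotent cells grown from the embryo before it implants. The labels do not say whether the libraries of a cell type came from separate cultures, so p-values measure the spread between these libraries, which may be technical. The figure legends of the paper call the samples biological replicates, and name fewer MEF samples than there are MEF columns. The protocol text filed with the samples describes RNA from blood stem cells, and the cell types were therefore checked by markers. All 8 pluripotency genes were higher in mESCs and all 10 fibroblast genes were lower. Blood cell markers summed to 23.2 to 55.8 CPM in MEFs and 22.0 to 29.5 CPM in mESCs. Of the 6 blood markers, 4 could be tested, with Cd68 higher and Lyz2 lower in mESCs. Of 4 endothelial markers, 3 could be tested, and Pecam1 was higher, a gene that mESCs are also known to express. Of 5 markers of differentiating embryo cells, Gata6 alone passed the filter and was not called, with a log2 fold change of -0.84. Below the filter, Sox17 had 51, 41 and 9 counts in mESCs and Foxa2 21, 18 and 4, both with 0 in every MEF library, and Gata4 had 18, 7 and 19 in mESCs against 0, 0, 5 and 0 in MEFs. Their part in the results was not tested.

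The proteasome degrades proteins that carry ubiquitin chains. Its barrel-shaped 20S core is built from rings of alpha subunits, which form the gate, and rings of beta subunits, of which Psmb5, Psmb6 and Psmb7 cut the substrate. The 19S cap binds the ubiquitin chain, removes it, and unfolds the substrate with a ring of ATPases, while other activators open the gate without ATP. Human embryonic stem cells are known for high proteasome activity, which has been tied to the lid subunit PSMD11.

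Libraries are named here by their total counts, which were 11441278, 9176467, 7312679 and 6528643 for MEFs and 8193825, 8057985 and 7462710 for mESCs, and values follow that order. Levels are CPM, counts brought to a common library size with edgeR's TMM factors. Each log2 fold change is mESC minus MEF with its standard error (SE), and a gene was called at an adjusted p under 0.05 in edgeR (quasi-likelihood test, Benjamini-Hochberg over all 16580 genes tested). At these depths the floor of 3 counts in a library came to between 0.288 and 0.477 CPM, which covers counting error only. In bulk samples, fewer cells of a type and less RNA per cell cannot be told apart. Libraries were made from the transcripts' 3′ ends, so levels are compared between libraries and not between genes.

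Most proteasome genes differed little between the cell types. All 45 members passed the filter on low counts, and 11 of them (24.4%) were called, against 47.9% of all genes tested. In mESCs 7 were higher, against a background of 22.8%, and 4 were lower, against 25% of all genes. With scaling by library size alone these counts became 18 higher and 2 lower, and with upper quartile scaling 15 and 2, so the balance of directions depends on the scaling. Those scalings moved the median of all genes by 0.28 and 0.20 on the log2 scale. The median log2 fold change of the members was 0.09, with quartiles of -0.17 and 0.32. Over all genes the median was 0.04 and the quartiles were -0.85 and 0.78. A log2 fold change larger than 0.5 in size was seen in 9 members (20%) and in 65.2% of all genes. MEF and mESC libraries were apart, with no overlap, in 18 members (40%), while this held for 52.1% of all genes. The genes tested were not matched to the members in level, so these are unlike sets. The largest SE was 8.80 over all genes and 1.02 in the members. Among the members called, Psmb3, Psme4 and Psmg1 stayed higher and Psmd9 and Psme2 stayed lower under each of 14 other settings. Those settings changed the scaling, the filter or the test or left out a library. Psma8, also among the 7 called higher, stayed so too. It passed the main filter through its mESC libraries alone, so its direction was set by that filter.

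**Figure D1:**
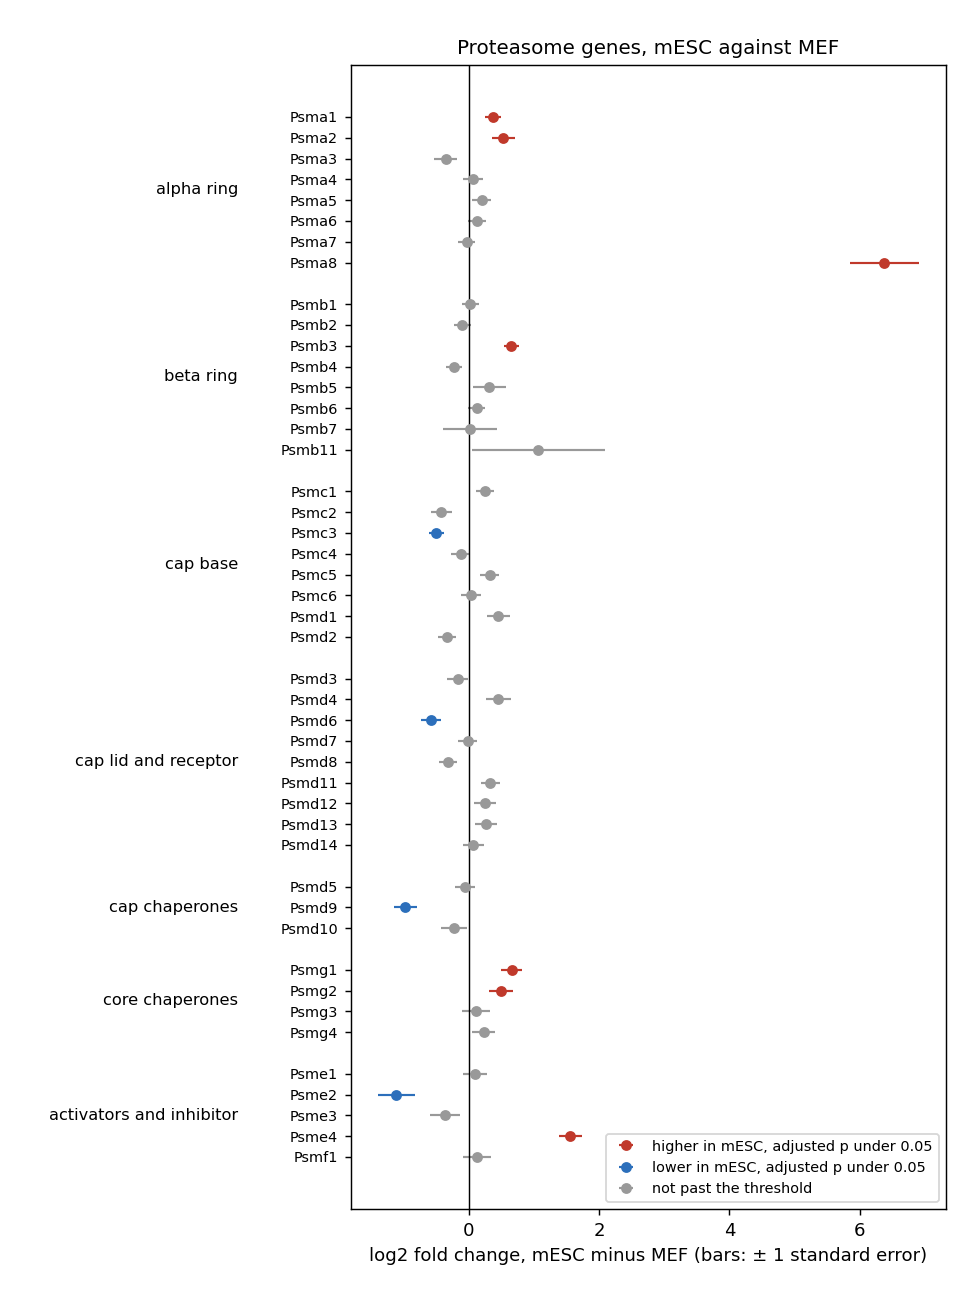
Log2 fold change (mESC minus MEF, x axis) of the 45 proteasome genes, grouped by role, with bars of 1 standard error either side; red and blue points are the 7 genes called higher and the 4 called lower, grey points did not pass. Most points lie near 0, while Psma8, Psme4, Psme2 and Psmd9 lie apart, and the fitted value of Psma8 depends on the prior count because its MEF libraries held 0 to 2 counts.

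Promoter sequences of RefSeq on GRCm38.p6 were matched to 37 of the 45 members, and the 250 bases before each transcript start were searched on both strands. The letters reported here are TGACNNNGC, a short form of the antioxidant response element that Nfe2l1 and Nfe2l2 bind with a small Maf protein, CCAAT, the box bound by NF-Y, and CCGGAAG, a core bound by ETS factors. The last was chosen after the promoters had been seen. Matches of different motifs did not overlap in any member. The antioxidant form was found in 5 members (13.5%) and in 11.5% of 27025 genes with a promoter. CCAAT was found in 13 members (35.1%) and in 37.5% of genes. CCGGAAG was found in 12 members (32.4%) and in 7.83% of genes. The 27025 genes were not limited to those that passed the filter on low counts, as all members did, so these are unlike sets. Members holding CCGGAAG had log2 fold changes of -0.58 to 1.56 with a median of 0.19, beside a median of 0.11 in members without it. For CCAAT the medians with and without were 0.13 and 0.12, and for the antioxidant form 0.13 and 0.12. A match is a description of the letters and not a site in use.

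The alpha ring opens the account of the core. Psma1, Psma2 and Psma8 were higher in mESCs and none of the 8 alpha genes was called lower. Psma1 (chr7:114264606-114276118, minus strand) had 267, 259, 293 and 258 CPM in MEFs and 333, 337 and 373 CPM in mESCs. Its libraries did not overlap, and the log2 fold change was 0.37 (SE 0.12, edgeR adjusted p = 0.0269). Psma2 (chr13:14613240-14674236, plus strand) had 407, 280, 368 and 250 CPM in MEFs and 444, 458 and 511 CPM in mESCs. The MEF libraries spread widely and the highest of them came close to the lowest mESC library (log2 fold change 0.53, SE 0.18, edgeR adjusted p = 0.0284). The call of Psma1 was kept in 1 of 7 fits that left out a library, the one without the MEF library of 7312679 counts. That of Psma2 was kept in 2 of 7, those without the MEF libraries of 11441278 and of 7312679 counts. Over all settings the adjusted p reached 0.155 for Psma1 and 0.173 for Psma2 in edgeR. The latter came without the MEF libraries of 9176467 and 6528643 counts, where the log2 fold change of Psma2 was 0.25, while it was 0.80 without the other MEF pair. The remaining ubiquitous alpha genes, Psma3 to Psma7, had log2 fold changes of -0.35 (Psma3) to 0.20 (Psma5) and their libraries overlapped. Psma3 passed as lower in the fit without the MEF library of 6528643 counts (edgeR adjusted p = 0.0420). Psma5 passed as higher with library size alone (0.48, edgeR adjusted p = 0.0164) and with the upper quartile (0.40, edgeR adjusted p = 0.0409). Psma6 passed as higher with library size alone (0.41, edgeR adjusted p = 0.0279). Of the 50-base sequences of Psma5 transcripts, 50% occur also in other genes, and of those of Psma3 15.4%, so their counts are uncertain.

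Psma8 encodes the alpha subunit that replaces Psma7 in the proteasome of developing sperm. Its raw counts were 2, 1, 0 and 1 in MEFs and 122, 93 and 94 in mESCs. Each MEF library was under the floor of 3 counts and each mESC library was far above it. Pooled over libraries, 309 counts in mESCs stood against 4 in MEFs, a ratio of 92.2 after scaling with a 95% exact interval of 35.6 to 340, which covers counting error only. The test called it higher (edgeR adjusted p = 3.9e-06). In mESCs the gene had 13.2, 10.6 and 11.1 CPM. Psma7 itself had 1503, 1316, 1844 and 1345 CPM in MEFs. It had 1476, 1448 and 1485 CPM in mESCs, inside the MEF range, with a log2 fold change of -0.03 (SE 0.13). Psma8 passed the filter through its mESC libraries alone, so the direction of its call was set by the filter.

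The beta ring held one called gene, Psmb3, and no change was called for the cutting subunits with TMM. With library size alone Psmb6 was called higher (log2 fold change 0.41, edgeR adjusted p = 0.0307). Psmb3 (chr11:97703399-97713500, plus strand), a structural subunit, had 532, 427, 514 and 505 CPM in MEFs and 831, 724 and 785 CPM in mESCs. Every mESC library was above every MEF library, a 1.58-fold difference (log2 fold change 0.66, SE 0.12, edgeR adjusted p = 0.00112). Other genes share 17.8% of its 50-base sequences. The call held in each of the 7 fits without a library.

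Psmb5, which cuts after hydrophobic residues, had 11.8, 10.9, 14.8 and 11.3 CPM in MEFs and 14.6, 12 and 18.9 CPM in mESCs (log2 fold change 0.32, SE 0.25). That value was 0.13 without the mESC library of 7462710 counts. Psmb6, which cuts after acidic residues, had 286, 304, 274 and 316 CPM in MEFs and 310, 295 and 360 CPM in mESCs (log2 fold change 0.13, SE 0.13). Psmb7, which cuts after basic residues, had 5.76, 3.12, 5.95 and 3.5 CPM in MEFs and 4.12, 6.48 and 3.30 CPM in mESCs (log2 fold change 0.01, SE 0.41). The libraries of the cell types overlapped in all of them, and the edgeR adjusted p-values were 0.338, 0.459 and 0.980. Counts of Psmb5 and Psmb7 are uncertain. Other genes, Gm3375 above all, hold 54.1% of the 50-base sequences of Psmb5, and 34.6% of those in the last 500 bases of Psmb7 transcripts lie also in Nek6, which overlaps it on the other strand. The strand setting of the counting was not given in the sources used here.

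Psmb11, the catalytic subunit of the thymus, had raw counts of 10, 0, 0 and 12 in MEFs and of 17, 15 and 8 in mESCs. Of the MEFs, it was detected in those of 11441278 and 6528643 counts and stood at 0 in the others, while all mESC libraries were above the floor. The log2 fold change of 1.07 had an SE of 1.02 (edgeR adjusted p = 0.426). The pooled ratio was 2.17 with a 95% exact interval of 1.26 to 3.83 for counting error. Of the other beta genes, Psmb1 and Psmb2 overlapped between cell types with log2 fold changes of 0.03 and -0.10. Psmb4 was lower in every mESC library at -0.22 and was not called (SE 0.12, edgeR adjusted p = 0.165).

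The promoter stretches of the called core genes that hold CCAAT are shown for Psma1, Psma2 and Psmb3, all higher in mESCs, with the CCAAT box in capitals on either strand. They lie at chr7:114276200-114276267 (minus), chr13:14613163-14613202 (plus) and chr11:97703324-97703399 (plus), and each reads 5′ to 3′ along its gene. The other 10 members with a CCAAT were not called.
Psma1: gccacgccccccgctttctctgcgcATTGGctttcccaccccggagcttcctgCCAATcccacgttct
Psma2: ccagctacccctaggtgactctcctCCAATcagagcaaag
Psmb3: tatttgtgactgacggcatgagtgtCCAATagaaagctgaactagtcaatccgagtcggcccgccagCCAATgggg

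The catalytic genes Psmb5 (chr14:54618024-54618067, minus) and Psmb6 (chr11:70525323-70525356, plus) hold the antioxidant form near the start, in capitals, and neither was called.
Psmb5: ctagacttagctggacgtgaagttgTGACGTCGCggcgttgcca
Psmb6: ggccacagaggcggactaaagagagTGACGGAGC

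The cap showed decreases of Psmc3 and Psmd6 in mESCs and no called increase among its 17 subunits. This split depends on the scaling. With library size alone or the upper quartile, 7 cap subunits were called higher and 0 lower in either case. These were Psmc1, Psmc5, Psmd1, Psmd4, Psmd11, Psmd12 and Psmd13 both times. DESeq2's test gave 2 higher, Psmd1 and Psmd4, and 2 lower. Psmc3 (chr2:91054009-91066369, plus strand), an ATPase of the base, had 549, 504, 590 and 572 CPM in MEFs and 395, 378 and 404 CPM in mESCs. All mESC libraries were below all MEF libraries (log2 fold change -0.50, SE 0.12, edgeR adjusted p = 0.00453). Slc39a13 covers 8.25% of its exon bases on the other strand. Psmd6 (chr14:14112174-14120984, minus strand), a structural lid subunit, had 178, 138, 172 and 151 CPM in MEFs and 107, 96.3 and 117 CPM in mESCs. Its groups were apart too (log2 fold change -0.58, SE 0.15, edgeR adjusted p = 0.00900). Both calls held in each fit without a library and were lost with library size alone and with the upper quartile, where the adjusted p was up to 0.166 for Psmc3 and 0.134 for Psmd6 (edgeR).

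The other ATPases moved either way without passing. Psmc2 had 244, 188, 277 and 210 CPM in MEFs and 163, 163 and 188 CPM in mESCs. The lowest MEF library reached the highest mESC library (log2 fold change -0.42, SE 0.16, edgeR adjusted p = 0.0522). Psmc2 passed as lower when the MEF library of 9176467 counts or that of 6528643 counts was left out. Psmc1, Psmc4, Psmc5 and Psmc6 had log2 fold changes between -0.12 and 0.32. The scaffold subunits of the base, Psmd1 and Psmd2, had 0.46 (edgeR adjusted p = 0.0584) and -0.33 (edgeR adjusted p = 0.0714), each without overlap of the libraries and with neither called. Psmd1 passed as higher with library size alone (0.74, edgeR adjusted p = 0.00523) and with the upper quartile (0.65, edgeR adjusted p = 0.0120). It also passed in DESeq2's test (DESeq2 adjusted p = 0.0415) and without the MEF library of 7312679 counts.

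In the lid, Psmd11 had 232, 192, 211 and 194 CPM in MEFs and 249, 234 and 300 CPM in mESCs. Its groups did not overlap, the highest MEF and the lowest mESC library lay side by side, and it was not called (log2 fold change 0.33, SE 0.14, edgeR adjusted p = 0.0747). Psmd11 was called higher with library size alone (0.62, edgeR adjusted p = 0.00445) and with the upper quartile (0.53, edgeR adjusted p = 0.0105). It was at 0.22 without the mESC library of 7462710 counts. Psmd4, the ubiquitin receptor, had 163, 158, 159 and 148 CPM in MEFs and 193, 164 and 290 CPM in mESCs. The mESC library of 7462710 counts stood far above the rest (log2 fold change 0.46, SE 0.19, edgeR adjusted p = 0.0672). Psmd4 passed as higher with library size alone (edgeR adjusted p = 0.00765) and with the upper quartile (edgeR adjusted p = 0.0150). It also passed in DESeq2's test (DESeq2 adjusted p = 0.0493) and without the mESC library of 8057985 counts. Without that of 7462710 counts its log2 fold change was 0.18 (edgeR adjusted p = 0.406). Psmd14, the enzyme that removes the ubiquitin chain, had a log2 fold change of 0.07 (SE 0.16). Psmd3, Psmd7, Psmd8, Psmd12 and Psmd13 had values between -0.31 and 0.26 and did not pass. Among them Psmd8 was lower in every mESC library (edgeR adjusted p = 0.0893).

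The 42 bases around CCGGAAG, in capitals, are shown for Psmd6 because it is the called cap gene that holds the motif (chr14:14120974-14121015, minus). Psmc6 (chr14:45329574-45329615, plus) and Psmd12 (chr11:107479278-107479299, plus) are the cap subunits with the antioxidant form, which lies on the other strand in both and is in capitals.
Psmd6: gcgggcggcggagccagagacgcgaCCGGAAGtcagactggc
Psmc6: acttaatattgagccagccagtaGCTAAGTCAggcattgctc
Psmd12: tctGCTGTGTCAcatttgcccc

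Of the cap chaperones, which guide assembly of the base, only Psmd9 was called, and it was lower in mESCs. It had 107, 82.2, 124 and 116 CPM in MEFs and 52.7, 59.2 and 51.4 CPM in mESCs. The MEF library of 9176467 counts was the lowest of its group and still above every mESC library, and the level was 1.97-fold higher in MEFs (log2 fold change -0.98, SE 0.18, edgeR adjusted p = 0.000974). This call held under each of those 14 settings. Gm26745 lies on the other strand over 25.5% of its exon bases, so part of the counts may belong to that gene. Psmd5 and Psmd10, of the same role, had log2 fold changes of -0.06 (SE 0.16) and -0.22 (SE 0.20) and were not called. Summed over the 3 chaperones, MEF libraries held 184 to 219 CPM and mESC libraries 135 to 151 CPM. That sum holds Psmd9, and the libraries of Psmd5 and of Psmd10 overlapped, so it does not show a fall of all 3. The part of Psmd9 in the sum was not tested.

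The annotated gene of Psmd9 spans chr5:123169413-123250131 (plus strand) on GRCm38, and the RefSeq start used lies inside it. The 250 bases before that start, chr5:123227940-123228189, are shown because Psmd9 is the only called member among the 5 with the antioxidant form, in capitals.
Psmd9: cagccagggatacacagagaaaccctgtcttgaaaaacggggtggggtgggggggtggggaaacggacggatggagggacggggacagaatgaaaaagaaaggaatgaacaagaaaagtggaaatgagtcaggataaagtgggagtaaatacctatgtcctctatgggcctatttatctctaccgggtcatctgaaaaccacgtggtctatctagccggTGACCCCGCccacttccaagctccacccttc

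The core chaperones were higher in mESCs for Psmg1 and Psmg2, whose products form a pair that assembles the alpha ring. Psmg1 (chr16:95979933-95990960, minus strand) had 44.6, 36.8, 48.9 and 48.8 CPM in MEFs and 72.4, 66.4 and 73.4 CPM in mESCs. The groups were well apart at 1.58-fold (log2 fold change 0.66, SE 0.16, edgeR adjusted p = 0.00591). Psmg2 had 32.1, 28.8, 28.4 and 26.1 CPM in MEFs and 33.2, 43.4 and 45.7 CPM in mESCs. The mESC library of 8193825 counts lay just above the highest MEF library (log2 fold change 0.50, SE 0.18, edgeR adjusted p = 0.0436). Its call was kept in 2 of 7 fits without a library, those without the MEF library of 11441278 counts and without the mESC library of 8193825 counts, and the adjusted p reached 0.189 over all settings (edgeR). Psmg3 had 15.6, 16.9, 14.8 and 19.6 CPM in MEFs and 17.9, 16.8 and 19.5 CPM in mESCs. Psmg4 had 26.7, 37.4, 39.9 and 34.8 CPM in MEFs and 41.6, 40.3 and 39.9 CPM in mESCs. These form the other chaperone pair, and neither was called, with log2 fold changes of 0.11 (SE 0.21) and 0.23 (SE 0.18). The 4 genes summed to 119 to 132 CPM in MEFs and to 165 to 178 CPM in mESCs. Psmg1 holds CCGGAAG, in capitals, at chr16:95991013-95991054 (minus).
Psmg1: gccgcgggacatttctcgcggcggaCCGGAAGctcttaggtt

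Of the 5 activators and inhibitor, Psme4 rose and Psme2 fell in mESCs, and the other 3 did not pass the test. Psme4 (chr11:30771726-30880361, plus strand) encodes a large activator that caps the core by itself and acts in sperm development and DNA repair. It had 26.4, 28.0, 23.0 and 21.8 CPM in MEFs and 67.6, 86.7 and 64.9 CPM in mESCs. No library came near the other group, and the level was 2.94-fold higher in mESCs (log2 fold change 1.56, SE 0.18, edgeR adjusted p = 4.1e-05). It shares no 50-base sequence with another annotated gene and overlaps none. Over all settings tried its log2 fold change ran from 1.41 to 1.84.

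The 204 bases of the Psme4 promoter that end with CCGGAAG, in capitals, are shown because this is the activator with the largest change (chr11:30771525-30771728, plus).
Psme4: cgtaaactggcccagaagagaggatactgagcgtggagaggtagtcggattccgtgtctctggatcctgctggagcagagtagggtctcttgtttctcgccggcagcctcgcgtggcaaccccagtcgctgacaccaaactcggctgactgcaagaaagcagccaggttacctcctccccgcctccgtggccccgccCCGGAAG

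Psme1 and Psme2 encode the alpha and beta subunits of the activator that interferon induces. Psme2 (chr14:55587441-55591113, minus strand) had 12.3, 15, 13 and 19.7 CPM in MEFs and 5.74, 7.73 and 7.31 CPM in mESCs. The groups did not overlap and MEFs were 2.16-fold higher (log2 fold change -1.11, SE 0.28, edgeR adjusted p = 0.00752). Psme1 had 34.2, 43.3, 35.8 and 50.4 CPM in MEFs and 38.6, 44.5 and 47.9 CPM in mESCs. Its groups overlapped fully (log2 fold change 0.09, SE 0.19). The call of Psme2 was lost when the MEF libraries of 9176467 and 6528643 counts were left out together. Of its 50-base sequences 28.3% occur also in Psme2b, a near-identical copy, which was lower as well at -0.85 (SE 0.17, edgeR adjusted p = 0.00219). Psme2b had 72.9 to 106 CPM in MEFs and 45.4 to 48.4 CPM in mESCs, far above Psme2 in every library. Summing the counts of both gave -0.88 (edgeR adjusted p = 0.00171). Most counts of that sum are those of Psme2b, so it says little about Psme2 itself.

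Psme3, whose product activates the core in the nucleus, had 40.9, 51.6, 55.6 and 32.6 CPM in MEFs and 39.5, 38.9 and 27.3 CPM in mESCs. The groups overlapped, with the mESC library of 7462710 counts below every MEF library (log2 fold change -0.36, SE 0.23, edgeR adjusted p = 0.223). Psmf1, known as an inhibitor of the core, had 27.9, 19.8, 18.1 and 22.3 CPM in MEFs and 22.1, 24.9 and 25.4 CPM in mESCs (log2 fold change 0.13, SE 0.21, edgeR adjusted p = 0.655). Its groups overlapped as well.

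**Figure D2:**
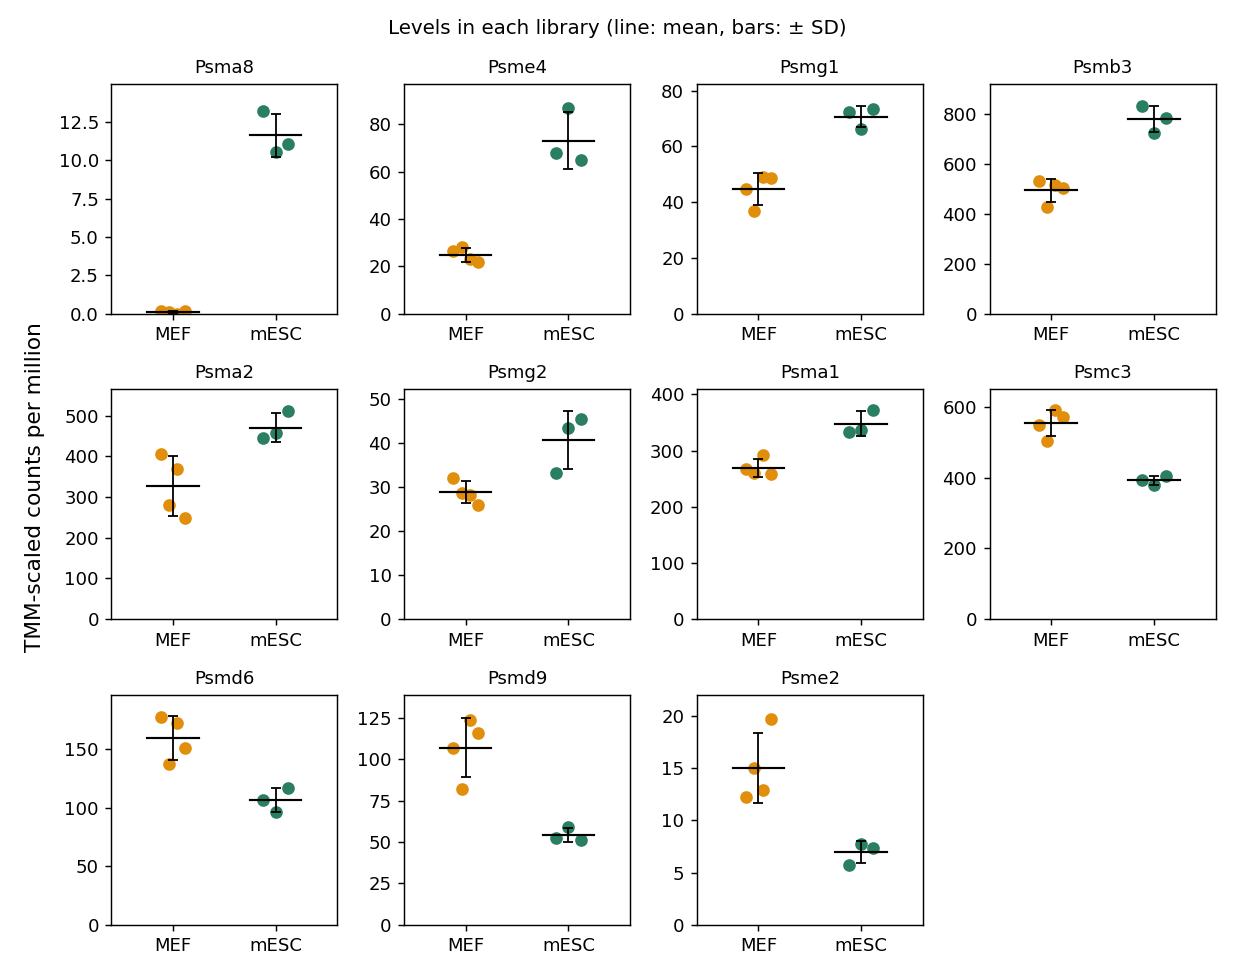
TMM-scaled CPM (y axis, from 0) of the 11 called genes in 4 MEF (orange) and 3 mESC (green) libraries, with the mean as a line and the SD as bars. In each panel the groups do not overlap, and the gap is narrow for Psma1, Psma2 and Psmg2 and wide for Psma8 and Psme4.

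Core and cap transcripts were then set against each other within each library, a ratio that no scaling can change. The summed CPM of the 17 cap subunits was 0.776, 0.742, 0.724 and 0.750 times that of the 14 core subunits without Psma8 and Psmb11 in MEFs. In mESCs it was 0.663, 0.661 and 0.711 times. The groups did not overlap, but the gap was narrow. The MEF library of 7312679 counts stood at 0.724 and the mESC library of 7462710 counts at 0.711. Psmb3, called higher in mESCs, is part of the core sum. The core sum ranged from 4314 to 5408 CPM in MEFs and from 5214 to 5450 CPM in mESCs, and the cap sum from 3201 to 3922 CPM and from 3448 to 3875 CPM, so neither sum separated the cell types by itself. The beta ring summed to 1632 to 1915 CPM in MEFs and 2044 to 2154 CPM in mESCs, without overlap. That sum holds Psmb3, the only beta gene called, with 427 to 532 CPM in MEFs and 724 to 831 CPM in mESCs. Psmb4 was lower in every mESC library, and the other beta genes overlapped, so the sum does not show a rise of the whole ring. The part of Psmb3 in this sum and in the ratio was not tested. A few genes of high counts, Psma7, Psmb1 and Psmb3 among them, carry much of the core sum. All members together took 0.725% to 0.881% of a MEF library's counts and 1.0% to 1.12% of a mESC library's. After TMM scaling the ranges overlapped, at 7976 to 9818 and 9196 to 9829 CPM.

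**Figure D3:**
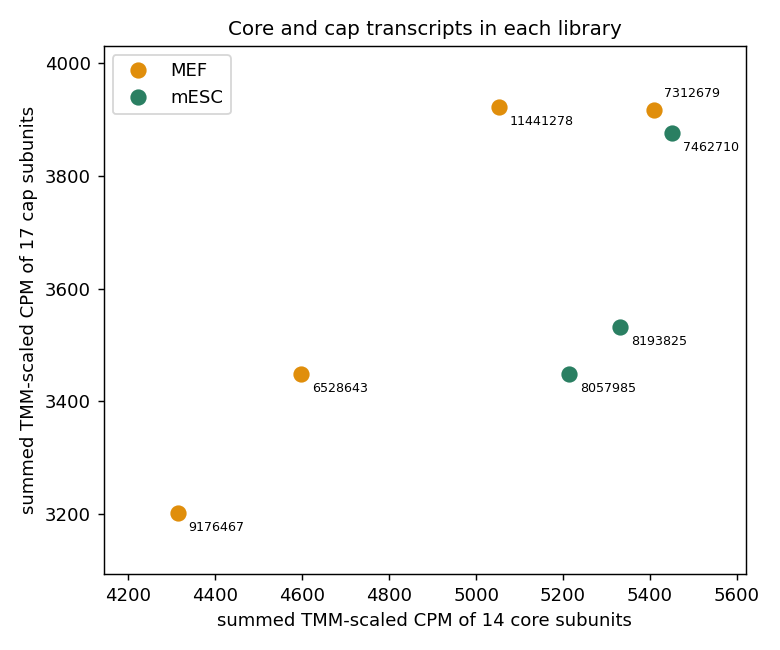
Summed TMM-scaled CPM of 14 core subunits (x axis) and 17 cap subunits (y axis) in each library, labelled by its total counts; orange points are MEF and green points mESC, and the axes do not start at 0. At a like cap sum the mESC libraries lie to the right of the MEF libraries, and the MEF libraries of 9176467 and 6528643 counts are lowest in the core.

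Each member was also measured against the median of the 31 core and cap subunits in the same library. On this log2 scale 8 members lay higher in every mESC library than in every MEF library and 14 lay lower, where 50.4% of all genes tested did not overlap. Of the 31 reference subunits themselves 5 were higher and 11 lower. Psme4 was 1.39 higher and Psmb3 0.50 higher relative to the median subunit, and Psmg1 0.51 higher. Psme2 was lower by a difference of -1.23, Psmd9 of -1.12, Psmd6 of -0.73 and Psmc3 of -0.65. For the genes just named these values, which need no scaling factor, had the same signs as the fitted ones. Psmb3, Psmd6 and Psmc3 are themselves among the reference subunits. Psmg2, called higher in the fit, overlapped on this scale. Psma4, Psma6, Psmb1, Psmb6, Psmb7, Psmc6, Psmd14, Psme1, Psmf1 and Psmg3, none of them called, had positive fitted values and negative values here. The 31 subunits spanned fitted log2 fold changes from -0.58 to 0.66 with a median of 0.06, and 5 of them were called.

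The MEF libraries were not alike in their proteasome genes. The libraries of 9176467 and 6528643 counts were both below the other MEF libraries in 25 members and both above in 5, and they overlapped in 15. Over all genes tested, 21.7% were below and 22.6% above. The 5 members that lay above were Psmb6, Psmd10, Psme1, Psme2 and Psmg3. The pair was picked after seeing the data by its level of the matrix gene Dcn, 467 and 522 CPM against 121 and 149 CPM, and is not named in the labels. Of the 10 fibroblast markers, Dcn included, 8 were above in this pair, Thy1 was below and Col1a1 overlapped. Of the 6 blood markers, 3 were above (Lyz2, Ptprc and Cd74), Cd68 was below and 2 overlapped, and Lyz2 alone among those 3 exceeded a few CPM, at 32.7 and 35.8 against 6.62 and 8.69. The part of these markers in the split was not tested. Without these libraries 4 members were higher and 5 lower in mESCs, with the calls of Psma1, Psma2, Psmg2 and Psme2 lost and those of Psmc2 and Psmd2 gained. Without the MEF libraries of 11441278 and 7312679 counts 8 were higher and 4 lower.

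**Figure D4:**
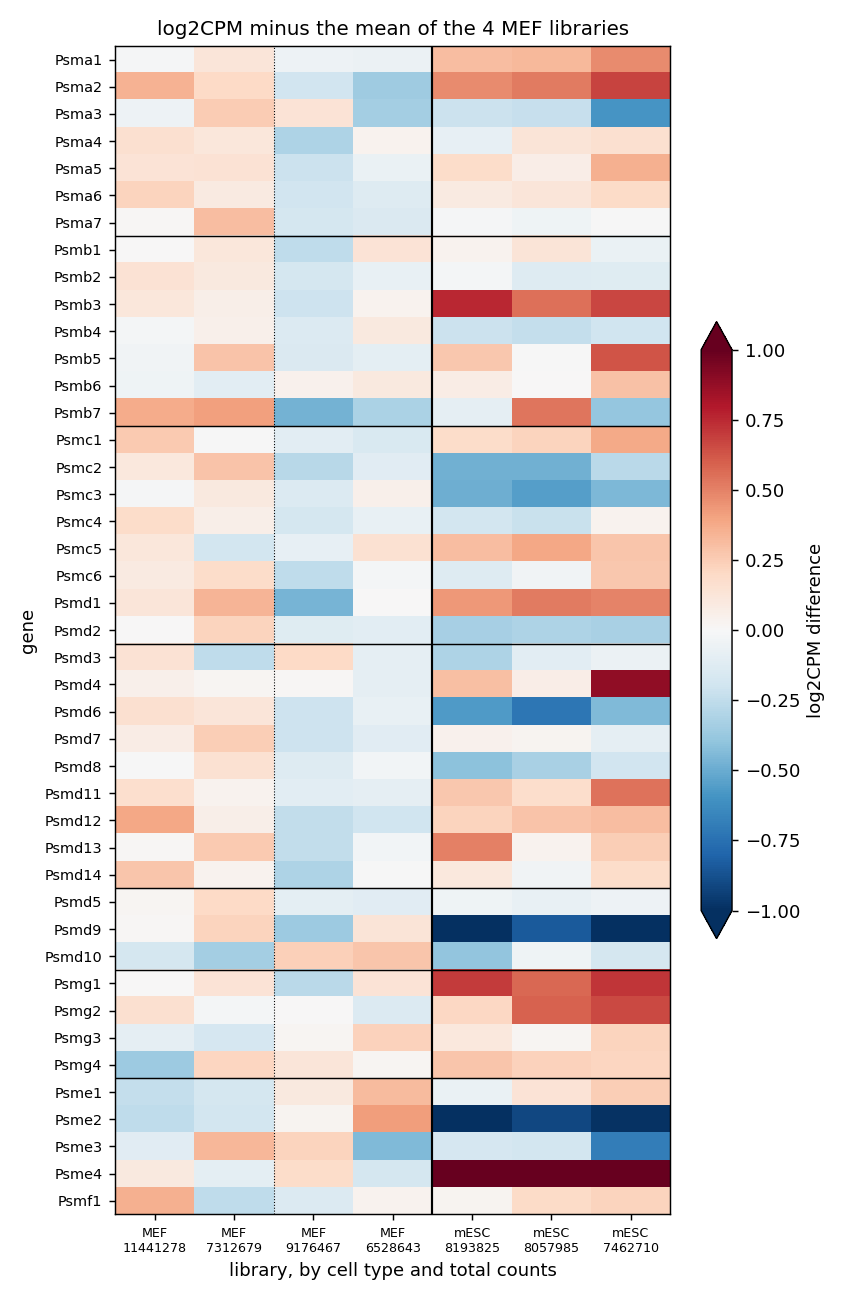
Difference of log2CPM from the mean of the 4 MEF libraries (colour, limited to 1 either way) for 43 proteasome genes by role in each library, without Psma8 and Psmb11, whose counts were near 0 in MEFs. The MEF libraries of 9176467 and 6528643 counts (right of the dotted line) are mostly blue in the core and cap, and Psme4, Psmb3, Psmg1, Psmd9 and Psme2 differ in all mESC libraries.

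Of the 11 partner and assembly genes, 1 was higher and 2 were lower in mESCs (27.3% called, against 47.9% of all genes tested). Fbxo7, a partner of Psmf1, was higher at a low level, with 3.07 to 6.52 CPM in MEFs and 6.82 to 11 CPM in mESCs (log2 fold change 1.10, SE 0.38, edgeR adjusted p = 0.0344). That call was lost without the MEF libraries of 9176467 or 7312679 counts and without the mESC libraries of 8193825 or 7462710 counts. Ecpas, which binds core and cap together, was lower, with 37.3 to 67.3 CPM in MEFs and 11.2 to 14.2 CPM in mESCs (log2 fold change -1.93, SE 0.25, edgeR adjusted p = 9.2e-05). Sem1, a small subunit of the lid, was the other gene that fell, to 369, 370 and 445 CPM in mESCs from 807, 780, 755 and 794 CPM in MEFs (log2 fold change -0.99). Pomp, needed to assemble the beta ring, was at -0.02 (SE 0.12) and Adrm1, a ubiquitin receptor, at 0.24 (SE 0.28), and neither was called.

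Of the 13 genes that regulate proteasome genes, 12 could be tested, with 3 higher and 5 lower in mESCs. The share called was 66.7%, against 47.9% of all genes tested. Nfe2l1, the factor that raises proteasome genes when the proteasome is blocked, had a log2 fold change of -0.34 (SE 0.16, edgeR adjusted p = 0.112). Ngly1 and Ddi2, enzymes that process the Nfe2l1 protein, were both lower. Ngly1, which removes its sugars, had 17.7 to 28.0 CPM in MEFs and 4.48 to 7.39 CPM in mESCs (log2 fold change -1.97, SE 0.28, edgeR adjusted p = 0.00019). Ddi2, the protease that cuts it, was at -0.99. Nfe2l2, the related factor of the antioxidant response, was higher, at 43.1 to 76.8 CPM in MEFs and 85.2 to 106 CPM in mESCs (log2 fold change 0.70, SE 0.20, edgeR adjusted p = 0.0144). Keap1, which holds the Nfe2l2 protein down, was lower at -1.51, and Bach1, a repressor at the same sites, at -1.22. Nfyb, an NF-Y subunit, had the largest increase in the list at 1.17 (SE 0.15, edgeR adjusted p = 0.000112), and Nfyc was lower at -0.69. Mafg was the other gene called higher, at 0.48 (edgeR adjusted p = 0.0183). Vcp had overlapping libraries at -0.33 (edgeR adjusted p = 0.0973) and was not called, nor were Maff and Nfya.

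Of the 17 genes of ubiquitin supply and delivery, 2 were higher and 4 lower (35.3% called, against 47.9% of all genes tested). Ubqln4, a shuttle that carries substrates to the proteasome, was at 0.75 (SE 0.18, edgeR adjusted p = 0.00584) and the related Ubqln2 at -1.07 (SE 0.23, edgeR adjusted p = 0.00264). Ubb, which encodes a chain of ubiquitin units, was higher at 0.25 (SE 0.09, edgeR adjusted p = 0.0464), close to the threshold. In each fit without a library, 1 gene of this list was higher. With scaling by library size alone 6 were higher and 1 lower in this list.

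The immunoproteasome subunits replace the cutting subunits under interferon, and of the 3 only Psmb8 was called (33.3%, against 47.9% of all genes). Psmb8 had 2.97, 5.75, 3.05 and 5.41 CPM in MEFs and 0.759, 0.341 and 1.06 CPM in mESCs. The mESC libraries held 7, 3 and 9 counts, so the gene passed the filter through its MEF libraries alone. The fitted log2 fold change was -2.55 (SE 0.56, edgeR adjusted p = 0.00337), and Gm20496 covers 14.7% of its exon bases on the other strand. Psmb9 had 1.92, 1.80, 1.52 and 1.27 CPM in MEFs and 5.74, 3.07 and 2.48 CPM in mESCs. Its libraries did not overlap, and it was not called (log2 fold change 1.19, SE 0.47, edgeR adjusted p = 0.0566). It passed as higher with library size alone, with the upper quartile and with the stricter filter, and was at 0.75 without the mESC library of 8193825 counts. Psmb10 had 19.3, 20.01, 31.7 and 25.1 CPM in MEFs and 23.7, 10.7 and 26.0 CPM in mESCs, with overlap (log2 fold change -0.25, SE 0.32). Of the 8 genes of peptide loading and the interferon response, 7 could be tested, with 0 higher and 3 lower (42.9% called). B2m, the constant chain of MHC class I, had 467 to 569 CPM in MEFs and 67.5 to 89.5 CPM in mESCs (log2 fold change -2.76, SE 0.16, edgeR adjusted p = 3.3e-07). Erap1, which trims peptides for loading, was lower as well at -1.84 (SE 0.51). It held 22, 8 and 6 counts in mESCs and, like Psmb8, passed the filter through its MEF libraries.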

How the data were processed

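Gene expression was measured by 3′ RNA-seq in 4 MEF and 3 mESC samples. The authors split the reads by sample index with Sabre and trimmed them with Cutadapt. STAR aligned them to mm10, reads sharing a molecular identifier were merged with Je, and featureCounts assigned unique alignments to exons. The deposited values are whole-number counts without normalization. The submitters' processing notes name STAR 2.4.2a, and the paper's methods another release. The annotation release and the strand setting were not given in the sources used here. Column names give the cell type but not the sample number, so libraries are named by their totals (6528643 to 11441278 counts), and the number of sample columns not used was 0.

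Counts were tested with edgeR 4.0.16 (R 4.3.3, limma 3.58.1) on 7 libraries with no covariate: genes were kept by filterByExpr, scaled by TMM and tested by quasi-likelihood, and p-values were adjusted after Benjamini and Hochberg, with a threshold of 0.05. SE is the log2 fold change over the root of its F statistic. log2CPM used a prior count of 2. Pooled ratios have exact 95% intervals. Alternatives were DESeq2 1.42.0, other scalings and filters, a test against a fold change of 1.2 and leaving out each library; leaving out pairs of MEF libraries and summing Psme2 with Psme2b were added after seeing the data. Every library pair within a cell type differed by more than counting noise (chi-square per degree of freedom 17.6 to 35.3).

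The members and lists were chosen with earlier results of these data known. Values in every library are given for the 5 largest and 5 smallest fold changes, the catalytic, activator, inhibitor and core chaperone genes, Psma8, Psmb11 and the immunoproteasome; of the other lists the called gene with the largest change in each direction, Pomp, Adrm1, Nfe2l1 and Nfe2l2. Psma1, Psma2, Psma7, Psmg2, Psmd4, Psmd11, Dcn, Lyz2, Sem1, Ddi2, Keap1, Bach1, Nfyc, Mafg, Vcp, Ubb and Erap1 were given values beyond that rule after they were seen. Coordinates and shared 50-base sequences are from GENCODE M21 on GRCm38, and promoters from RefSeq (GRCm38.p6). Some genes of the lists and one of the motifs searched are not reported here. The code was tested on simulated data. There the quasi-likelihood test missed a first limit on the recovery of changed genes of any level, as low or variable genes were missed. The limit was then set for genes of higher level only.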

Additional observations from a re-analysis of the deposited data

How the results depend on the processing

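No paired analysis was possible because nothing ties a count column to a sample number. With 4 and 3 libraries, differences close to the SEs given could not be detected, and genes at a few counts, such as Psmb11 and Psmb7, have wide errors. Where a value moved, the cause was not tested.

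Scaling moved most. Without scaling beyond library size, 18 members were higher and 2 lower, 7 core subunits were higher, and 7 cap subunits were higher and 0 lower. In the lists, 3 partner genes and 6 ubiquitin genes were then higher and 1 ubiquitin gene was lower. With upper quartile scaling 15 members were higher and 2 lower, 7 cap subunits higher and 0 lower, and 3 partner and 4 ubiquitin genes higher. Over all genes, 47.7% of calls were higher in mESCs with TMM, 60.8% without scaling and 57.0% with the upper quartile. DESeq2's test called 2 cap subunits higher. The test against a fold change of 1.2 called 4 members, 2 core subunits, 1 core chaperone and 1 ubiquitin gene higher. With no filter beyond 1 count, which moved the median of all genes by 0.11, 1 core chaperone, 0 partner genes and 1 ubiquitin gene were higher, and with a stricter filter (at least 10 counts in all libraries of a cell type) 1 core chaperone and 1 ubiquitin gene.

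Leaving out each library in turn gave 4 to 7 members higher and 4 to 6 lower, 2 to 4 core subunits higher and 0 to 1 lower, 0 to 1 cap subunits higher and 2 to 3 lower, 1 to 2 core chaperones higher, 0 to 2 partner genes higher, 1 to 3 regulators higher and 1 ubiquitin gene higher. The regulators came to 1 higher without the mESC library of 8057985 counts. The core came to 2 higher without the MEF libraries of 9176467 or 6528643 counts or any mESC library. Without the MEF libraries of 9176467 and 6528643 counts together, 4 members, 2 core subunits, 1 core chaperone and 1 ubiquitin gene were higher, 4 cap subunits were lower and 0 activators were lower. Without those of 11441278 and 7312679 counts, 2 cap subunits, 1 core chaperone, 2 partner genes and 1 ubiquitin gene were higher.

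Signs turned only in genes that were not called. Without scaling the log2 fold changes were Psma7 0.25, Psmb2 0.19, Psmb4 0.058, Psmc4 0.16, Psmd3 0.11, Psmd5 0.23, Psmd7 0.27, Psmd10 0.053, Pomp 0.26 and Psmb10 0.036. With the upper quartile they were Psma7 0.16, Psmb2 0.10, Psmc4 0.072, Psmd3 0.031, Psmd5 0.14, Psmd7 0.18 and Pomp 0.18. DESeq2's size factors gave Psmd7 0.0041 and Pomp 0.0014, and DESeq2's test 0.0042 and 0.0014. With no filter Psmb1 was at -0.0067, Psmb7 at -0.021 and Psmc6 at -0.00066, and with the stricter filter Psmb7 at -0.0088. Over the fits without a library Psmd7 ran from -0.089 to 0.065, Pomp from -0.075 to 0.0067, Psma4 from -0.037 to 0.13, Psmb1 from -0.059 to 0.069, Psmb7 from -0.31 to 0.20, Psmc6 from -0.098 to 0.11, Psmd14 from -0.031 to 0.17, Psma7 from -0.098 to 0.075, Psmd5 from -0.11 to 0.0057 and Psmb10 from -0.48 to 0.049. Without TMM the mean CPM of 5 members in MEFs and of 31 in mESCs moved by more than the SD, and a prior count of 0.5 moved 1 log2CPM difference.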
